A study of Mus musculus with 18 samples.

Results

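The 10 genes described here are the glucocorticoid receptor gene Nr3c1 and 9 genes that glucocorticoids are known to induce: Fkbp5, Tsc22d3, Sgk1, Klf9, Zbtb16, Pdk4, Cdkn1a, Mt1 and Mt2. They were picked by symbol as a read-out of systemic stress, out of 48529 genes with summed read estimates. All 10 were found, and all 10 passed the filter on low counts. RNA was sequenced from dorsal root ganglia (DRG), clusters beside the spinal cord in which sensory neurons sit with glia, vessels and resident immune cells. Each library came from the lumbar ganglia L2, L3 and L4 on the injected side of 1 male C57BL/KaLwRijHsd mouse, labelled as aged 5 to 7 weeks and sampled on post-surgical day 24. The 9 MM mice had cells of the murine myeloma line 5TGM1-GFP, a plasma cell tumour that carries a green fluorescent protein, placed in the femur, and the 9 SHAM mice had vehicle placed there. Both groups share the strain, the sex and the surgery, and no unoperated mice were analysed here.

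Glucocorticoids (corticosterone in mice) are steroid hormones of the adrenal cortex that rise with stress and with the daily cycle. They bind the receptor encoded by Nr3c1, which then enters the nucleus, binds DNA at glucocorticoid response elements and raises transcription of genes such as Fkbp5, Tsc22d3 and Sgk1. Several of these genes also answer to other signals: Cdkn1a is a target of p53, Mt1 and Mt2 answer to zinc and to inflammatory cytokines, and Pdk4 answers to fasting.

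The libraries held between 19218249 and 21771206 estimated reads. The summed CPM of 16 sensory neuron markers lay between 9328 and 20490 in MM and between 14990 and 20440 in SHAM, so neuronal RNA was abundant in all of them (CPM are counts scaled by library size, with TMM scaling between libraries). Some libraries stood apart by markers of other cells. Markers of B, plasma and myeloma cells (13 measured) summed to between 142.5 and 8538 CPM in MM, with MM9, MM8 (5058 CPM) and MM5 (4460 CPM) far above the rest, and to between 95.2 and 155.7 CPM in SHAM. The 11 measured skeletal muscle markers summed to between 94.55 and 2794 CPM in MM and to between 67.4 and 25690 CPM in SHAM, with the highest sum in SHAM8. No marker in these lists was at 0 in all libraries, and Tnfrsf17, Mzb1, Derl3 and Myh2 were too low to be tested. Of the plasma and myeloma cell markers 9 rose, led by Igkc (immunoglobulin kappa, 963.4 CPM in MM, against 5.96 CPM in SHAM) and Il5ra (11.7 CPM in MM, against 0.178 CPM in SHAM), and Cd79a, a B cell receptor subunit, fell (2.17 CPM in MM, against 3.94 CPM in SHAM; edgeR adjusted p = 0.00681, 0.00681 and 0.049). Of 17 cell cycle genes 14 rose, led by Ccnb1 (7.15 CPM in MM, against 0.363 CPM in SHAM) and Cdk1 (6.48 CPM in MM, against 0.659 CPM in SHAM; edgeR adjusted p = 0.00711 and 0.0141), and of 15 macrophage markers 8 rose, led by Ctss (58.6 CPM in MM, against 9.00 CPM in SHAM) and Cd68 (26.6 CPM in MM, against 3.07 CPM in SHAM; edgeR adjusted p = 0.0159 and 0.0171). All 6 measured erythroid genes fell, led by Hbb-bt (7.59 CPM in MM, against 61.1 CPM in SHAM) and Hba-a1 (30.3 CPM in MM, against 213 CPM in SHAM; edgeR adjusted p = 0.00681 and 0.00711), and Mrgprd, a receptor of nonpeptidergic nociceptors, was the sensory neuron marker that fell (113 CPM in MM, against 136 CPM in SHAM; edgeR adjusted p = 0.0427). Of the 16 sensory neuron markers 15 were lower in MM, with a median log2 fold change of -0.151, against -0.004 over all genes. No marker of neutrophils, muscle, adipocytes, satellite glia, Schwann cells, endothelium or fibroblasts and pericytes passed (9, 11, 6, 8, 9, 8 and 8 measured). In whole tissue, a change in the number of cells of a type and a change in RNA per cell cannot be told apart.

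The ganglia of myeloma-bearing and sham-operated mice were compared for these genes. By edgeR's quasi-likelihood test over 15774 genes, 0 of the 10 genes passed at a Benjamini-Hochberg adjusted p under 0.05, where 2.99% of all genes tested passed (2.75% higher and 0.241% lower in MM). DESeq2 called 0 of the 10 as well, against 7.61% of all genes. An unadjusted edgeR p under 0.05 with a higher level in MM was found for 3 of the 10, Sgk1, Mt1 and Mt2, where 13.9% of all genes met that mark, and 22.5% in either direction. That count was 1 of 10 (Sgk1) without MM5, MM8 and MM9, and 0 of 10 without SHAM7 and SHAM8 (unadjusted edgeR p of 0.0605 for Sgk1, 0.0661 for Mt1 and 0.0506 for Mt2). Log2 fold changes (MM over SHAM) were above 0 for 7 of the 10, against 48.9% of all genes, and their median was 0.11, against -0.004 over all genes. In none of the 10 were the groups apart: MM and SHAM libraries overlapped in each, while 0.146% of all genes showed no overlap.

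**Figure D1:**
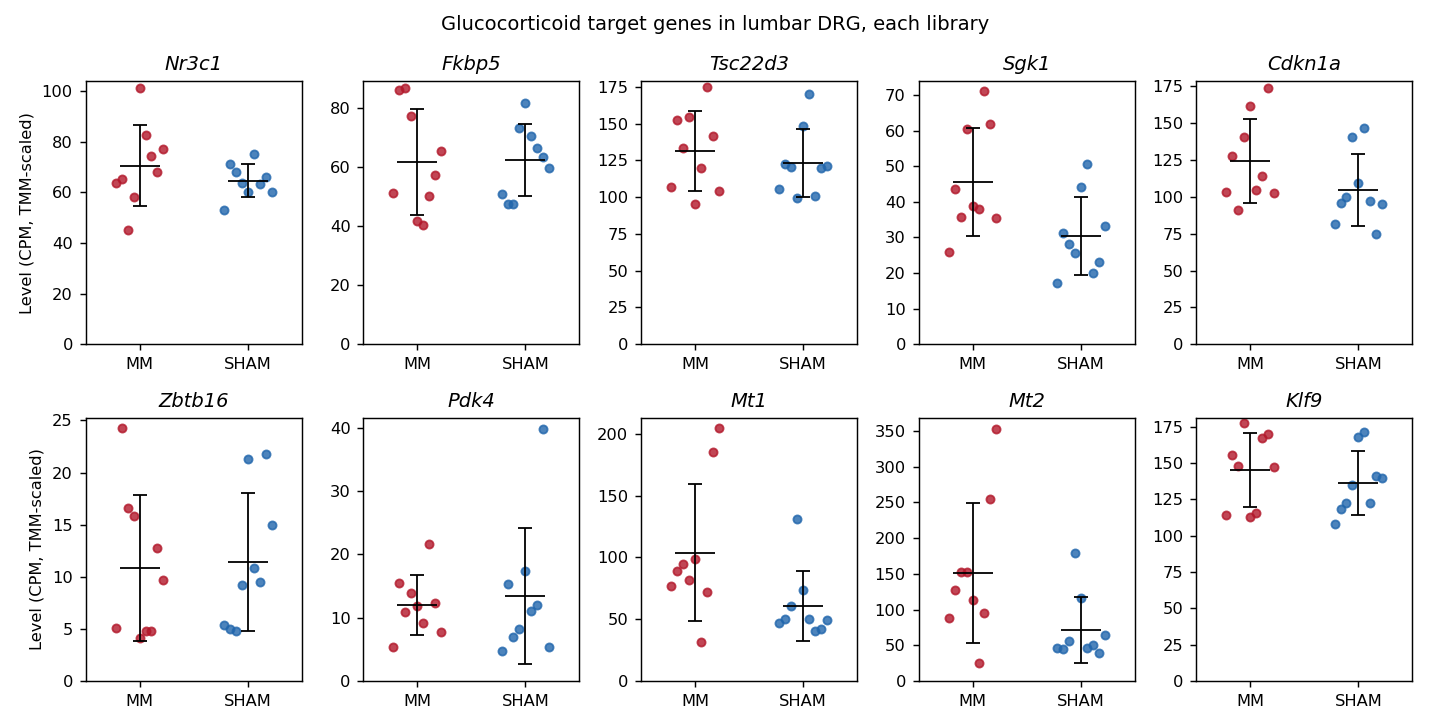
Level of each of the 10 genes (y axis, TMM-scaled CPM, from 0) in 9 MM and 9 SHAM libraries. Points are libraries in order of replicate number, and the bar with whiskers is the mean ± SD. The groups overlap in every panel. Sgk1, Cdkn1a, Mt1 and Mt2 have 8 of 9 MM points above the SHAM median, and 13% of all genes have at least 8.

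The mRNA of the receptor did not differ beyond the spread between mice. Nr3c1 (ENSMUSG00000024431) ranged from 45.2 CPM (MM3) over a median of 67.9 to 101 CPM (MM5) in MM, and from 53.2 over a median of 63.6 to 75.4 CPM in SHAM. The MM libraries reached both below and above the SHAM range. The log2 fold change was 0.13 ± 0.11 (SE, n = 9 each; 95% interval -0.11 to 0.36; edgeR adjusted p = 0.51). Without MM5, the highest Nr3c1 library, the log2 fold change was 0.048, and it was 0.005 without MM5, MM8 and MM9. MM5 was the library farthest from the others over all genes, with the lowest sum of sensory neuron markers (9328 CPM). The interval over all libraries runs from 0.927-fold to 1.29-fold, so larger shifts of receptor mRNA lie outside it.

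For Fkbp5 and Zbtb16 no difference between the groups was detectable. Fkbp5 (ENSMUSG00000024222), a co-chaperone that binds the receptor complex and dampens its hormone sensitivity, ranged from 40.3 over a median of 57.5 to 86.9 CPM in MM and from 47.6 over a median of 63.6 to 81.9 CPM in SHAM. Its log2 fold change was -0.012 ± 0.16 (SE, n = 9 each; 95% interval -0.34 to 0.32; edgeR adjusted p = 0.973). Zbtb16 (ENSMUSG00000066687), a zinc finger transcription factor also known as PLZF, ranged from 4.14 over 9.64 to 24.2 CPM in MM and from 4.77 over 9.45 to 21.8 CPM in SHAM (lowest, median and highest). The spread of Zbtb16 was wide in both groups, and its interval of -0.89 to 0.75 around a log2 fold change of -0.07 ± 0.39 (SE; edgeR adjusted p = 0.932) leaves room for a 1.68-fold rise or a drop to 0.539-fold. Low and high libraries stood apart in both groups: MM1, MM5, MM6 and MM7 lay at or under 5.08 CPM and the other MM libraries at or above 9.64 CPM, while SHAM1, SHAM2 and SHAM3 lay at or under 5.38 CPM and the other SHAM libraries at or above 9.22 CPM.

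For Tsc22d3 and Klf9 the intervals of the difference were narrow and included 0. Tsc22d3 (ENSMUSG00000031431), which encodes the leucine zipper protein GILZ, a mediator of anti-inflammatory glucocorticoid action, ranged from 95.05 over 133.5 to 175 CPM in MM and from 99.3 over 120.5 to 170.4 CPM in SHAM (lowest, median and highest). Its log2 fold change was 0.09 ± 0.12 (SE; 95% interval -0.17 to 0.36; edgeR adjusted p = 0.674). Klf9 (ENSMUSG00000033863), a Krüppel-like transcription factor induced by glucocorticoids and thyroid hormone, ranged from 113 over 147.7 to 178 CPM in MM and from 108 over 135 to 171 CPM in SHAM. Its log2 fold change was 0.09 ± 0.11 (SE; 95% interval -0.14 to 0.32; edgeR adjusted p = 0.63). For Tsc22d3 the upper bound is a 1.28-fold rise.

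Sgk1 stood higher in MM than in SHAM by a margin that did not pass correction over all genes. Sgk1 (ENSMUSG00000019970) encodes a serine/threonine kinase that regulates ion channels and transporters. It ranged from 26.0 (MM1) over a median of 38.8 to 71.3 CPM (MM7) in MM and from 17.3 (SHAM1) over a median of 28.2 to 50.7 CPM (SHAM6) in SHAM. The SHAM median was exceeded by 8 of the 9 MM mice, an arrangement that 13% of all genes reach, and 3 lay above the highest SHAM library. The means were 45.7 ± 15.2 CPM in MM, against 30.4 ± 11 CPM in SHAM (SD over 9 mice each). The log2 fold change was 0.59 ± 0.22 (SE, 95% interval 0.13 to 1.04), with an unadjusted edgeR p of 0.0144 and an edgeR adjusted p = 0.129. The high MM libraries were MM7, MM8 and MM4 (71.3, 62.0 and 60.4 CPM), of which MM8 alone belongs to the 3 with most myeloma marker RNA. Without MM5, MM8 and MM9 the log2 fold change was 0.59 (edgeR adjusted p = 0.496).

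The Sgk1 locus is shown because the receptor's binding pattern occurs in 1 of its start-site windows. The pattern searched was the half-site TGTNC preceded, across 3 free bases, by its reverse complement GNACA, a palindrome that reads the same on both strands, in the 250 bases before each RefSeq start site (GRCm38.p6). Of 32851 such windows, 127 held it (0.387%). RefSeq promoter windows were found for 8 of the 10 genes, all but Nr3c1 and Zbtb16, and gave 16 windows; the palindrome occurred in 1 of 6 windows of Sgk1 and in the window of Mt1. The window below, plus strand, chr10:21993640-21993889, ends just before the start at 21993890 of the second most abundant Sgk1 transcript (ENSMUST00000092673), and the palindrome is in capitals.
Sgk1: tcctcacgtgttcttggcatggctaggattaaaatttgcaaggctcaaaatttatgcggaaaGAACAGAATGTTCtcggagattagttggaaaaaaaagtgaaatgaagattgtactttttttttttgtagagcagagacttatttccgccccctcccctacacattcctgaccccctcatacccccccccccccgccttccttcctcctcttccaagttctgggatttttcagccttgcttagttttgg
The palindrome begins 964 bases before the start of the most abundant transcript (ENSMUST00000020145). The half-site TGTTCT, searched on both strands, occurs 3 times in this window, and 2 of those overlap the palindrome; 16.1% of all windows hold the half-site at least once. A match of letters is a description and does not show binding. Per length, in TPM (the level scaled for transcript length), the most abundant transcript was at 24.4 ± 9.20 TPM in MM, against 15.9 ± 6.65 TPM in SHAM, and the second at 6.07 ± 3.28 TPM in MM, against 3.77 ± 2.46 TPM in SHAM (SD over 9 mice each). A form with a far upstream start at 21882184 (ENSMUST00000120509) was at 2.33 ± 0.682 TPM in MM, against 2.65 ± 0.493 TPM in SHAM. The share of the gene's TPM in the most abundant transcript was 67.2% ± 7.76 in MM, against 64.2% ± 11.03 in SHAM (2-sided exact permutation p = 0.517, adjusted p = 0.603 over 7 genes).

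Pdk4 was by far highest in 1 SHAM library. Pdk4 (ENSMUSG00000019577), a kinase that shuts down pyruvate dehydrogenase and so spares glucose, ranged from 5.42 over a median of 11.8 to 21.7 CPM in MM and from 4.69 over a median of 11.1 to 39.8 CPM in SHAM. The highest value was that of SHAM8, with the next SHAM library at 17.4 CPM. SHAM8 also had the highest sum of muscle markers, and muscle is rich in Pdk4; the part of muscle RNA in this value was not tested. The log2 fold change was -0.15 ± 0.36 (SE, n = 9 each; 95% interval -0.91 to 0.60; edgeR adjusted p = 0.821), and it was 0.25 without SHAM8. In this fit the sign thus turned when SHAM8 was left out. With all libraries kept, the log2 fold change was also above 0 with limma voom (0.053) and with a replicate block (0.06).

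Cdkn1a, which encodes the cell cycle inhibitor p21, was at 124 ± 28.6 CPM in MM, against 104 ± 24.4 CPM in SHAM (ENSMUSG00000023067; SD over 9 mice each). It ranged from 90.9 over 114 to 174 CPM in MM and from 74.7 over 96.8 to 147 CPM in SHAM. The 2 highest libraries were MM8 (174 CPM) and MM5 (161 CPM), both rich in myeloma marker RNA, while MM9 stood at 103 CPM. The log2 fold change was 0.25 ± 0.14 (SE; 95% interval -0.05 to 0.55; edgeR adjusted p = 0.306). The SHAM median was exceeded by 8 of the 9 MM mice, where 13% of all genes have at least 8. The log2 fold change was 0.12 without MM5, MM8 and MM9.

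The make-up of Cdkn1a transcripts differed over all 18 libraries, but not once the MM libraries richest in myeloma marker RNA were left out. The most abundant transcript (ENSMUST00000023829) held 97.1% ± 2.59 of the gene's TPM in MM, against 99.0% ± 0.636 in SHAM (SD over 9 mice each), a difference of -1.94 percentage points (2-sided exact permutation p = 0.00284, adjusted p = 0.0199 over 7 genes with at least 2 transcripts averaging 10 reads or more). The gene met that mark through a second transcript, ENSMUST00000233296, which averaged 12.6 reads over all 18 libraries. It was at 0.835 ± 0.495 TPM in MM, against 0.275 ± 0.338 TPM in SHAM, so the entry of the gene was not independent of the group. The remainder in MM lay mainly in ENSMUST00000119901, a transcript that starts further upstream, at 1.95 ± 2.31 TPM in MM, against 0.195 ± 0.263 TPM in SHAM. This transcript averaged 9.0 reads, under the mark of 10. Its estimated reads per library were 63.2 in MM9, 29.6 in MM8, 16.7 in MM5, 16.1 in MM1 and 14.2 in MM7, with 0 to 5.7 in the other MM libraries and 0 to 6.0 in SHAM. The 3 highest, MM9, MM8 and MM5, were also the 3 with most myeloma marker RNA (8538, 5058 and 4460 CPM). Without those 3 the difference in share was -0.776 points and did not pass (exact permutation adjusted p = 0.201), and the part of tumour cell RNA in it was not tested further. Without MM9 the difference in share was -1.11 points (exact permutation adjusted p = 0.0377). It missed the threshold without SHAM1, SHAM2, SHAM4, SHAM7 or SHAM9 (exact permutation adjusted p = 0.0616, 0.0659, 0.0633, 0.0697 and 0.0518). Splitting reads between transcripts of 1 gene is an estimate, and this result rests on few reads. None of the other 6 genes passed. The nearest was Mt1, whose most abundant transcript held 99.2% ± 0.545 of its TPM in MM, against 99.7% ± 0.241 in SHAM (exact permutation adjusted p = 0.0557). Mt1 met the mark of 10 reads through ENSMUST00000211807, which averaged 24.9 reads over all 18 libraries. That transcript was at 4.19 ± 3.77 TPM in MM, against 0.585 ± 0.530 TPM in SHAM. The entry of Mt1 was thus not independent of the group either.

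Mt1 and Mt2 showed the widest differences of the 10, again without passing correction. They encode metallothioneins, small cysteine-rich proteins that bind zinc and copper and that glucocorticoids, metals and interleukin-6 induce. Mt2 (ENSMUSG00000031762) ranged from 24.4 (MM6) over a median of 127.7 to 352 CPM (MM9) in MM and from 38.5 over a median of 50.1 to 179 CPM (SHAM4) in SHAM. Its log2 fold change was 1.08 ± 0.40 (SE, 95% interval 0.25 to 1.92), with an unadjusted edgeR p of 0.014 and an edgeR adjusted p = 0.127. Mt1 (ENSMUSG00000031765) ranged from 31.2 (MM6) over a median of 89.0 to 204 CPM (MM9) in MM and from 40.8 over a median of 49.9 to 131 CPM (SHAM4) in SHAM. Its log2 fold change was 0.78 ± 0.30 (SE, 95% interval 0.15 to 1.40), with an unadjusted edgeR p of 0.0181 and an edgeR adjusted p = 0.143. For both genes all MM mice but MM6 exceeded the SHAM median, MM6 lay below every SHAM library, and MM8 and MM9 lay above every SHAM library.

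The high metallothionein libraries MM9 and MM8 were also the 2 with most myeloma marker RNA, and MM5, the third of them, stood at 113 CPM of Mt2, below the MM median of 127.7 CPM. For Mt1 the same 3 libraries were the highest of all MM libraries, with MM5 at 99.05 CPM (MM median 89.0 CPM). The part of tumour cell RNA in these values was not tested. Without MM5, MM8 and MM9 the log2 fold change fell to 0.58 for Mt2 and 0.29 for Mt1 (edgeR adjusted p = 0.721 and 0.81). In the SHAM group, SHAM4 had 179 CPM of Mt2 and SHAM5 had 117 CPM, with at most 64.1 CPM in the other 7. Mt3 (neuronal metallothionein), in the same family and not an established glucocorticoid target, was at 122 ± 18.2 CPM in MM, against 128 ± 16.8 CPM in SHAM (SD over 9 mice each, edgeR adjusted p = 0.649); it is named here after its values were seen. Mt1 and Mt2 are close paralogs, so the estimates can share ambiguous reads.

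The start-site windows of Mt1 and Mt2 are shown because the 2 genes moved together from mouse to mouse. They lie near each other on chromosome 8 of GRCm38.p6, both on the plus strand, at chr8:94178839-94179081 for Mt1 and chr8:94172368-94172617 for Mt2. The last 7 bases before the Mt1 start overlap an annotated exon and are not shown. Capitals mark the metal response core, TGCACNC or TGCGCNC on either strand, and in Mt1 also the palindrome, here GGACATGATGTTC, which does not overlap the core.
Mt1: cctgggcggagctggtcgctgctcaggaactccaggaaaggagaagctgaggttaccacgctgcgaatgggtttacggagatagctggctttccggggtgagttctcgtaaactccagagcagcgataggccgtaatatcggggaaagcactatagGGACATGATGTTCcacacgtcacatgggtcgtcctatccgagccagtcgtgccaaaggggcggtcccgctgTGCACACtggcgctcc
Mt2: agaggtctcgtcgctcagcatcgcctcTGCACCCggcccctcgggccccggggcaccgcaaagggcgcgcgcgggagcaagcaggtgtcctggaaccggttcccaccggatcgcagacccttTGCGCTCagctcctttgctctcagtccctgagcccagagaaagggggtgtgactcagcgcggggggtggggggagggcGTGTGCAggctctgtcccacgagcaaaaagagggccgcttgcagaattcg
The metal response core occurs once in the Mt1 window and 3 times in the Mt2 window, and 21.4% of all windows hold it. The palindrome was not in the Mt2 window, which says nothing of sites elsewhere.

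**Figure D2:**
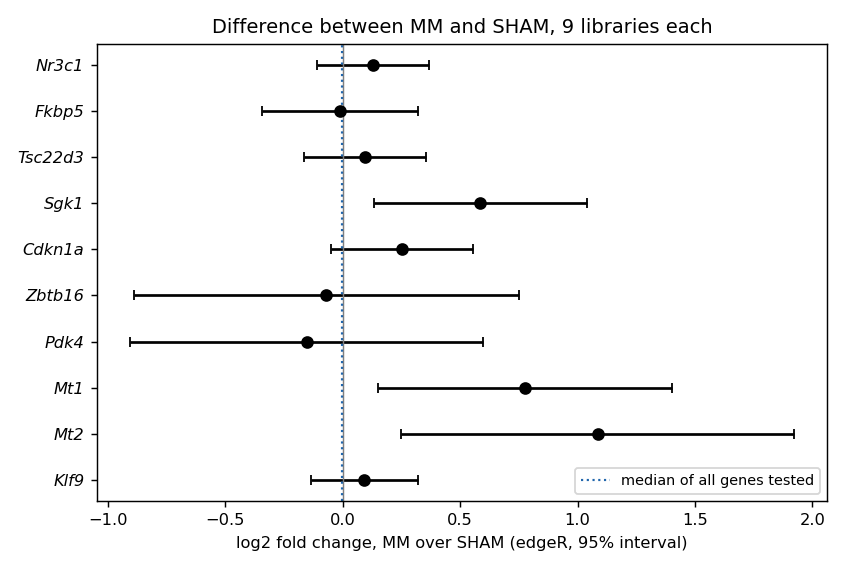
Log2 fold change of each gene, MM over SHAM (x axis; points are edgeR estimates, whiskers 95% intervals, n = 9 each); the dotted line is the median over all genes tested, -0.004. The intervals of Sgk1, Mt1 and Mt2 lie above 0 before correction, and those of the other 7 genes include 0.

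Per length, the order of the levels was nearly the same in both groups. Mt2 led at 1031 ± 611 TPM in MM, against 525 ± 346 TPM in SHAM, followed by Mt1 at 606 ± 288 TPM in MM, against 385 ± 182 TPM in SHAM (SD over 9 mice each). Tsc22d3 (128 ± 31.6 TPM in MM, 124 ± 24.6 TPM in SHAM) and Cdkn1a (124 ± 26.5 TPM in MM, 108 ± 25.9 TPM in SHAM) came next and did not differ beyond their spread. Klf9 stood at 56.2 ± 11.1 TPM in MM, against 54.8 ± 8.97 TPM in SHAM. Sgk1 (36.2 ± 12.2 TPM) lay above Fkbp5 (30.8 ± 9.25 TPM) in MM, and Fkbp5 (33.5 ± 5.56 TPM) above Sgk1 (25.2 ± 10.7 TPM) in SHAM, with neither gap beyond the summed SDs. Nr3c1 held 21.4 ± 4.74 TPM in MM, against 20.9 ± 2.50 TPM in SHAM. Pdk4 (6.66 ± 3.99 TPM in MM, 7.43 ± 4.67 TPM in SHAM) and Zbtb16 (4.05 ± 2.67 TPM in MM, 4.46 ± 2.46 TPM in SHAM) were lowest and did not differ beyond their spread. Gaps wider than the summed SDs of the neighbours, in both groups, separated Mt1 from Tsc22d3, Cdkn1a from Klf9 and Nr3c1 from Pdk4.

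Few pairs of the 10 genes varied together closely enough to pass a test. Pearson and Spearman correlations of log2 CPM were taken over all 45 pairs within MM and within SHAM, 90 relations in all, with 2-sided exact permutation p and Benjamini-Hochberg adjustment over the 90. In MM 36 of 45 pairs and in SHAM 34 of 45 pairs had r above 0, with a median r of 0.25 in MM and 0.37 in SHAM. A total of 4 relations passed for r, 2 in each group: Fkbp5 with Zbtb16 in MM, Tsc22d3 with Sgk1 in SHAM, and Mt1 with Mt2 in both. For rho as well as r, 1 relation passed in MM, Fkbp5 with Zbtb16, and 0 passed in SHAM. Whether a correlation differed between the groups was not tested.

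**Figure D3:**
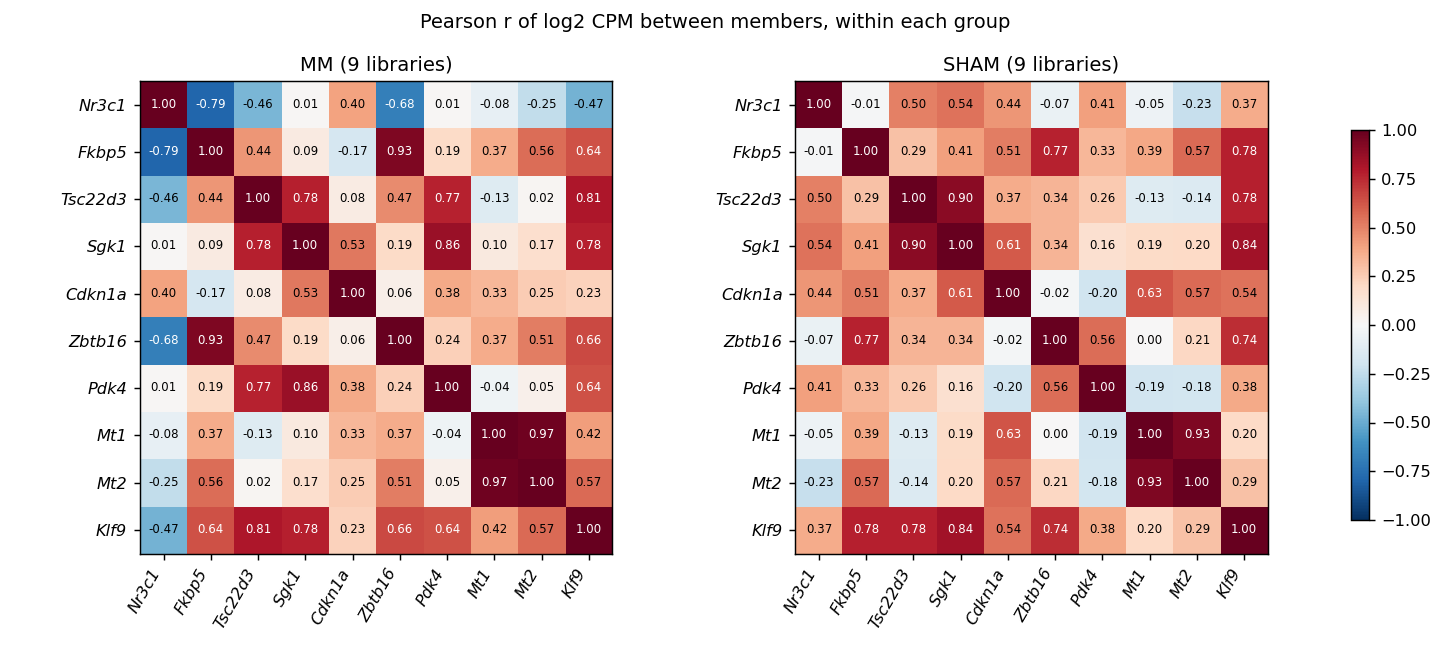
Pearson r of log2 CPM for each pair of the 10 genes, in MM (left) and SHAM (right), 9 libraries each; colour runs from -1 (blue) to 1 (red). Fkbp5 with Zbtb16 is 0.93 in MM and 0.77 in SHAM, Tsc22d3 with Sgk1 is 0.78 in MM and 0.90 in SHAM, and Mt1 with Mt2 is 0.97 in MM and 0.93 in SHAM.

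Fkbp5 and Zbtb16 passed in MM. There they had r = 0.93 (exact permutation p = 0.000672, adjusted p = 0.0303) and rho = 0.95 (p = 0.000353, adjusted p = 0.0317), and r = 0.89 without MM2 and MM3, the libraries farthest from the Fkbp5 median. In SHAM r was 0.77 (exact permutation p = 0.0189, adjusted p = 0.122) and rho 0.62 (p = 0.0857), with r = 0.55 without SHAM2 and SHAM3. Because Zbtb16 split into low and high libraries in each group, with fewer than 6 libraries on either side in MM, the relation within those sides cannot be tested in MM, and r cannot be separated from the fact that every library low in Zbtb16 was also lower in Fkbp5 than the rest of its group. Over the 6 MM libraries other than MM5, MM8 and MM9, r was 0.95. Nr3c1 ran against Fkbp5 in MM (r = -0.79, exact permutation p = 0.0082, rho = -0.78, p = 0.0172; r = -0.65 without MM3 and MM5), which did not pass after adjustment; in SHAM r was -0.01 (exact permutation p = 0.972) and rho -0.13 (p = 0.744), and r was -0.78 without SHAM1 and SHAM6.

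Tsc22d3 and Sgk1 passed in SHAM for r, but not for rho (exact permutation adjusted p = 0.0812). Tsc22d3 and Sgk1 had r = 0.78 in MM (exact permutation p = 0.0152, adjusted p = 0.106; rho = 0.75, p = 0.0255) and r = 0.90 in SHAM (p = 0.00148, adjusted p = 0.0443; rho = 0.87, p = 0.00451). Without the 2 libraries farthest from the Tsc22d3 median, r was 0.79 in MM and 0.67 in SHAM, where SHAM5 and SHAM6 hold the top of both genes. SHAM6 also had the lowest sensory neuron marker sum of the SHAM libraries (14990 CPM). Its erythroid (2993 CPM) and macrophage (183.8 CPM) marker sums were the highest in SHAM. The part of cell mix in the SHAM correlations was not tested. Sgk1 and Klf9 had r = 0.78 in MM (exact permutation p = 0.0142; rho = 0.72, p = 0.0369) and r = 0.84 in SHAM (p = 0.00608; rho = 0.65, p = 0.0666), with r = 0.71 in MM and 0.62 in SHAM without the 2 farthest libraries; neither passed after adjustment (adjusted p = 0.106 in MM and 0.0913 in SHAM). No relation of Klf9 passed on log2 CPM, and those with Tsc22d3, Fkbp5 and Zbtb16 were of like size. Klf9 and Tsc22d3 had r = 0.81 in MM (exact permutation p = 0.012; rho = 0.87, p = 0.00451; r = 0.73 without MM5 and MM7) and r = 0.78 in SHAM (p = 0.0129; rho = 0.48, p = 0.194; r = 0.21 without SHAM5 and SHAM6). Klf9 and Fkbp5 had r = 0.64 in MM (exact permutation p = 0.0712; rho = 0.48, p = 0.194; r = 0.76 without MM2 and MM3) and r = 0.78 in SHAM (p = 0.0153; rho = 0.73, p = 0.0311; r = 0.77 without SHAM2 and SHAM3). Klf9 and Zbtb16 had r = 0.66 in MM (exact permutation p = 0.0639; rho = 0.60, p = 0.0968; r = 0.61 without MM2 and MM5) and r = 0.74 in SHAM (p = 0.0237; rho = 0.80, p = 0.0138; r = 0.70 without SHAM5 and SHAM8). Pdk4 and Sgk1 did not pass in either group on log2 CPM. In MM the values were close to the threshold (r = 0.86, exact permutation p = 0.003, adjusted p = 0.0539; rho = 0.92, p = 0.00131; r = 0.84 without MM7 and MM8). In SHAM r was 0.16 (exact permutation p = 0.687; rho = 0.18, p = 0.644; r = -0.13 without SHAM1 and SHAM6), and r was 0.52 without SHAM6 and SHAM8, of which SHAM8 had the high Pdk4 value (exact permutation p = 0.239; rho = 0.50).

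Mt1 and Mt2 passed in both groups for r. For rho they passed in neither (exact permutation adjusted p = 0.0812 in MM and 0.436 in SHAM). In MM r was 0.97 (exact permutation p = 0.000361, adjusted p = 0.0303; rho = 0.87, p = 0.00451) and stayed at 0.87 without MM6 and MM9. In SHAM r was 0.93 (exact permutation p = 0.00208, adjusted p = 0.0469; rho = 0.60, p = 0.0968) and was 0.47 without SHAM4 and SHAM5, so the SHAM value rests on those 2 libraries.

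**Figure D4:**
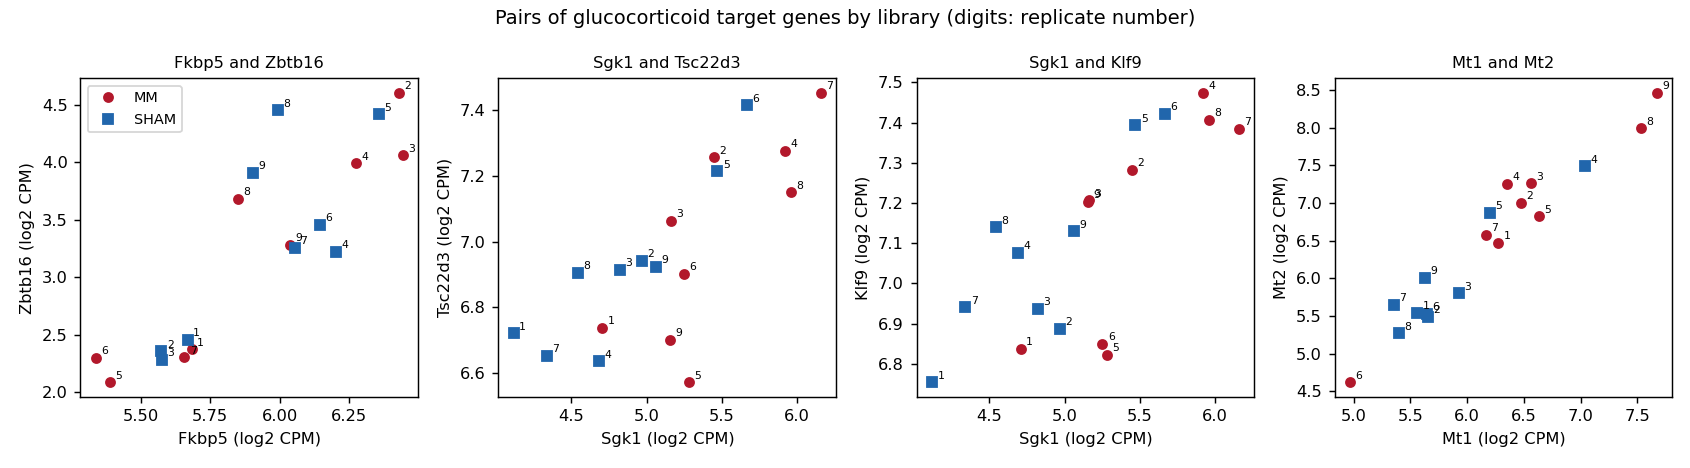
Log2 CPM of 4 pairs of genes by library (red circles MM, blue squares SHAM, digits give the replicate number). MM and SHAM libraries share 1 band for Fkbp5 with Zbtb16 and for Mt1 with Mt2, with SHAM4 and SHAM5 apart from the other SHAM libraries in the last panel.

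Of 33 measured genes in a wider list of glucocorticoid-induced genes, 2 rose in MM, 0 fell and 31 did not pass. Of all genes, 2.75% rose and 0.241% fell. A log2 fold change above 0 was found for 27 of the 33, against 48.9% of all genes, and the median was 0.19, against -0.004 over all genes. At an unadjusted edgeR p under 0.05, 6 were higher and 1 was lower in MM. Of all genes, 13.9% were higher at that mark and 22.5% met it in either direction. The summed CPM of the list overlapped, at 1494 to 1865 in MM and 1343 to 1923 in SHAM. Nfkbia (I-kappa-B alpha), an inhibitor of NF-kappa-B that NF-kappa-B itself also induces, was at 36.5 ± 12.5 CPM in MM, against 20.5 ± 6.71 CPM in SHAM (SD over 9 mice each, log2 fold change 0.83 ± 0.21 SE; edgeR adjusted p = 0.0408). Rhob, a small GTPase, was at 160.7 ± 19.9 CPM in MM, against 132 ± 13.8 CPM in SHAM (SD over 9 mice each, log2 fold change 0.28 ± 0.08 SE; edgeR adjusted p = 0.0485). With 1 library left out, the Nfkbia call was lost in 12 of 18 fits and the Rhob call in 14 of 18, and without MM5, MM8 and MM9 both were lost (edgeR adjusted p = 0.411 and 0.332). Cebpd, a transcription factor of the acute phase response, was at 26.8 ± 19.6 CPM in MM, against 10.9 ± 3.71 CPM in SHAM (SD over 9 mice each, edgeR adjusted p = 0.0545) and is named after its values were seen.

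To see which of these 33 genes varied with the members, each was correlated with Fkbp5, Sgk1 and Mt2 within each group (198 relations, a choice made after the pairs were seen). In SHAM, Sgk1 ran with Per1, a clock gene with a glucocorticoid response element (r = 0.95, exact permutation p = 2.2e-05, adjusted p = 0.00182; rho = 0.97, p = 0.000165; r = 0.88 without SHAM1 and SHAM6). It also ran with Errfi1, a feedback inhibitor of the EGF receptor (r = 0.85, exact permutation p = 7.44e-05, adjusted p = 0.00368; rho = 0.97, p = 0.000165; r = 0.92 without the same 2), and with Nfkbia (r = 0.91, exact permutation p = 0.000675, adjusted p = 0.0267; rho = 0.92, p = 0.00131; r = 0.97 without the same 2). For rho in SHAM, Per1 and Errfi1 passed with Sgk1 (exact permutation adjusted p = 0.0109 each) and Nfkbia did not (adjusted p = 0.0519). In MM none of these 3 passed. Sgk1 and Per1 had r = 0.92 (exact permutation p = 0.00156, adjusted p = 0.0516; rho = 0.73, p = 0.0311; r = 0.81 without MM7 and MM8), Sgk1 and Errfi1 had r = 0.66 (exact permutation p = 0.0549; rho = 0.80, p = 0.0138; r = 0.34 without the same 2), and Sgk1 and Nfkbia had r = 0.47 (exact permutation p = 0.205; rho = 0.32, p = 0.41; r = 0.23 without the same 2). Per1 itself was at 41.4 ± 10.95 CPM in MM, against 33.9 ± 12.3 CPM in SHAM (SD over 9 mice each, log2 fold change 0.29 ± 0.20 SE; edgeR adjusted p = 0.383). Mt2 ran with Map3k6, a stress kinase, in MM (r = 0.91, exact permutation p = 8.27e-06, adjusted p = 0.00164; rho = 0.98, p = 4.96e-05; r = 0.93 without MM6 and MM9), against r = 0.77 in SHAM (exact permutation p = 0.0227, adjusted p = 0.189; rho = 0.47, p = 0.213; r = 0.18 without SHAM4 and SHAM5). With Fam107a, an actin-binding protein gene, Mt2 had r = 0.83 in MM (exact permutation p = 0.00298, adjusted p = 0.0737; rho = 0.73, p = 0.0311; r = 0.62 without MM6 and MM9) and r = 0.93 in SHAM (exact permutation p = 2.76e-05, adjusted p = 0.00182; rho = 0.93, p = 0.00075; r = 0.87 without SHAM4 and SHAM5). Of the 33 genes, 0 passed with Fkbp5 in either group.

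The machinery of the receptor and the other inducers of these genes were counted in the same fit. Of 15 measured genes for the receptor's chaperones, coregulators and steroid-handling enzymes, 0 rose and 0 fell, where 2.99% of all genes passed. An unadjusted edgeR p under 0.05 was found for 6, 2 higher and 4 lower in MM, where 22.5% of all genes met that mark. Nr3c2, the mineralocorticoid receptor, which also binds corticosterone, was at 25.0 ± 3.20 CPM in MM, against 25.9 ± 2.17 CPM in SHAM (SD over 9 mice each, 95% interval of the log2 fold change -0.20 to 0.10). Hsd11b1, the enzyme that regenerates active glucocorticoid, was at 0.930 ± 0.525 CPM in MM, against 0.861 ± 0.424 CPM in SHAM (SD over 9 mice each); 3 reads correspond to 0.138 to 0.156 CPM. Both are named after their values were seen. Of 13 genes of the metal and oxidative response 0 passed, and of 18 genes of fasting and fatty acid use 0 passed. An unadjusted edgeR p under 0.05 was found for 4 genes in each list, against 22.5% of all genes.

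Of 19 measured p53 targets 3 rose, where 2.75% of all genes did, 0 fell and 16 did not pass. Their median log2 fold change was 0.05. Pmaip1 (NOXA), a pro-apoptotic gene, was at 6.70 ± 6.54 CPM in MM, against 1.16 ± 0.449 CPM in SHAM, and Trp53inp1, a stress-induced cofactor of p53, at 42.4 ± 26.9 CPM in MM, against 19.4 ± 1.79 CPM in SHAM (SD over 9 mice each, edgeR adjusted p = 0.0173 and 0.0354). Btg2 was the third. Mdm2 and the other 15 did not pass. Of 11 measured genes of the STAT3 and acute phase response, 3 rose, where 2.75% of all genes did, and 8 did not pass. These genes share induction with Mt1, Mt2 and Cebpd, and their median log2 fold change was 0.81. Bcl3, an atypical I-kappa-B protein, was at 13.7 ± 5.45 CPM in MM, against 7.64 ± 1.32 CPM in SHAM, and Timp1, a metalloproteinase inhibitor, at 12.7 ± 13.3 CPM in MM, against 2.02 ± 0.998 CPM in SHAM (SD over 9 mice each, edgeR adjusted p = 0.0284 and 0.0267). Ccl2 was the third. Of 13 measured axon injury genes 0 passed, where 2.99% of all genes did. All 13 had a log2 fold change above 0, against 48.9% of all genes. Their summed CPM had a median of 289.7 in MM and 265.1 in SHAM. It was high in MM8 (759.6 CPM) and MM4 (645.6 CPM). The other MM libraries reached at most 336.4 CPM (MM9), and SHAM reached 385.8 CPM (SHAM8). An unadjusted edgeR p under 0.05 with a higher level in MM was found for 3, against 13.9% of all genes. Without MM5, MM8 and MM9 none of Pmaip1, Trp53inp1, Btg2, Bcl3, Timp1 and Ccl2 passed (edgeR adjusted p = 0.064, 0.134, 0.514, 0.157, 0.359 and 0.65), and with 1 library left out Pmaip1 alone of the 6 kept its call in all 18 fits. The macrophage markers, of which 8 of 15 rose, were also highest in those libraries, and the part of tumour and immune cell RNA in these calls was not tested.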

How the data were processed

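The authors quantified transcripts with Salmon 1.5.2 on GRCm39 and used DESeq2, per the submitters' processing notes; index and options are not given in the sources used here. The deposited files hold estimated counts, TPM and effective lengths per transcript, and a deposited table holds a normalized signal per gene. Estimated counts were summed per gene through GENCODE M21 (GRCm38; 3620 of 137562 transcripts had no gene and held 0.85% to 1.339% of reads), and rounded. As a check, 76.05% of values of 10796 genes in the authors' table lay within 5% of the scaled sums.

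Genes kept by filterByExpr were TMM-scaled and tested with edgeR 4.0.16 (robust quasi-likelihood, R 4.3.3); log2 CPM used a prior count of 2. DESeq2 1.42.0 and limma 3.58.1 (voom) were alternatives, as were other scaling, no filter, length offsets, a replicate block and libraries left out. Intervals of fold changes are 95%. Exact tests ran in Python 3.11.15 with scipy 1.17.1. The fits were tested on simulated data.

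The labels name no pairing; each library is 1 mouse per the series design. Low counts are imprecise: 3 reads are 0.138 to 0.156 CPM, and this covers counting error only. The 10 genes and 20 lists were chosen with earlier results of these data known, and the rule for named genes took the 10 genes and, per list and direction, up to 2 passing genes with the lowest p; Btg2, Ccl2 and others said to be so were named besides. RefSeq windows (GRCm38.p6) gave the sequences, printed only outside annotated exons.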

Additional observations from a re-analysis of the deposited data

Results flagged for a closer look

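Dixon's criterion (gap over range above 0.493) was applied to 20 sets of 9 values (10 genes in each group). In 2 sets it marked a library far from its neighbours. About 1 set in 20 meets that mark by chance, and both gaps over range were 0.637. Pdk4 was at 39.8 CPM in SHAM8, with the next SHAM library at 17.4 CPM. Mt1 was at 131 CPM in SHAM4, with the next SHAM library at 73.5 CPM.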

How the results depend on the processing

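None of the 10 genes passed in any of the 26 alternatives, single libraries left out included. The count over all genes, 471, was less stable: 1201 with DESeq2, 0 with limma voom (where 3 of the 10 genes had an unadjusted p under 0.05, a count that was 1 without MM5, MM8 and MM9 and 0 without SHAM7 and SHAM8 in edgeR), 8 with a replicate block, 60 when MM5, MM8 and MM9 were left out, 35 when SHAM7 and SHAM8 were, and 84 to 1014 with 1 library left out. Same-numbered libraries did not deviate together (correlation over 0.1 in 2 of 9 pairs). This cannot show whether they shared a day or cage, since single libraries also differed in myeloma and muscle marker RNA. The labels name no pairing, and the libraries were treated as unpaired. Signs turned for Fkbp5, Zbtb16, Pdk4 and the Tsc22d3 transcript share, none of them called. The log2 fold change of Fkbp5 was 0.065 with MM5, MM8 and MM9 left out, 0.001 with SHAM7 and SHAM8 left out, and -0.088 to 0.047 with 1 library left out. For Zbtb16 these values were 0.059, 0.085 and -0.311 to 0.099. For Pdk4 it was 0.053 with limma voom, 0.06 with the replicate block, 0.286 without SHAM7 and SHAM8 and -0.304 to 0.247 with 1 library left out. Nr3c1 was 0.048 without MM5. Sgk1 kept 0.48 to 0.71, Mt1 0.59 to 1.004 and Mt2 0.82 to 1.39 with 1 library left out. Genes with a differing transcript share numbered 1, or 2 by share of reads (Mt1 added), 0 without MM5, MM8 and MM9 (chosen after seeing the data, with fewer libraries; Cdkn1a at -0.776 points) and 0 to 4 with 1 library left out; that of Tsc22d3 moved between -0.0973 and 0.598 points. Passing correlations numbered 4, or 7 on log2(TPM + 1), 0 without MM5, MM8 and MM9 and 2 without SHAM6 and SHAM8 (both chosen after seeing the data, with fewer libraries per correlation). On log2(TPM + 1), Klf9 with Tsc22d3 and Pdk4 with Sgk1 also passed in MM, and Klf9 with Sgk1 in SHAM (exact permutation adjusted p = 0.0254, 0.0168 and 0.0301).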
